A study of Mus musculus with 8 samples.

Results

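Translation initiation factors (eIFs) bring the small ribosomal subunit and the initiator tRNA to the start codon of an mRNA, and elongation factors (eEFs) deliver each further tRNA and move the ribosome along. They were represented here by 47 genes, found as every probe set whose platform annotation gave exactly 1 symbol beginning with Eif or Eef, without Eif2s3x and Eif2s3y. These genes held 64 of the 12488 probe sets of the array and 47 of its 8252 named genes, and the brightest probe set stood for each gene. The choice used names only, so no measured value decided which genes entered. A probe set shared by Eif4a3 and its relatives (1 in all) carried several symbols and stayed out.

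RNA came from the livers of 8 female Ames dwarf mice (df/df), and each liver was hybridised to 1 Affymetrix U74Av2 array, which reads a transcript through sets of short oligonucleotide probes. The df/df genotype leaves the animals without growth hormone, prolactin and thyroid stimulating hormone from the pituitary. All 8 mice carried that genotype, received 30% less pelleted food than female df/df mice fed freely, and were killed when 24 to 26 months old. They make up 1 group, without unrestricted or normal-sized mice among the samples analysed here, so every comparison below is between individual livers and none measures the diet or the mutation.

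The arrays were on a common scale, with a mean intensity (lowest and highest 2% of probe sets removed) of 499.9 on each. Hepatocyte markers fitted the labelled tissue, with 8 of 8 bright enough to test and a summed intensity from 84625 in mouse 6 to 122720 in mouse 5. Single markers differed from that sum. Tat was highest in mouse 5 (21226), while Apob (1839) and Hnf4a (266, and 702.5 or more in the other mice) were lowest there. Mouse 5 stood apart in 1 control: the Gapdh 3' over 5' ratio reached 1.41 on the log2 scale there, against -0.33 to 0.09 elsewhere. For beta-actin the ratio of mouse 5, 0.67, lay inside the range of the rest (0.54 to 1.0). Ranges over 2-fold that rest on mouse 5, and calls or correlations that turn on it, are given with and without it. Of the 47 genes, 35 (41 probe sets) had a mean intensity of at least 165.2, the median of all values, and were tested. The other 12 (Eef1akmt1, Eef1g, Eef2k, Eif2ak2, Eif2ak3, Eif2ak4, Eif2s2, Eif3f, Eif4e, Eif4enif1, Eif4h and Eif5a) were dimmer and are given as values. Intensities of different probe sets depend on their probes, so levels are compared between mice and never between genes.

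In outline, eIF1 and eIF1A scan for the start codon, eIF2 carries the initiator tRNA, eIF2B recharges eIF2 with GTP, and kinases that phosphorylate eIF2 slow initiation under stress. The eIF4F complex (cap-binding eIF4E, helicase eIF4A and scaffold eIF4G) loads mRNA and is held back by the eIF4E-binding proteins, eIF3 bridges mRNA and ribosome, and eIF5, eIF5B and eIF6 act on the joining of the subunits. Liver makes most plasma proteins and depends heavily on this machinery, and many mRNAs of elongation factors and ribosomal proteins begin with a run of C and T bases (a 5' terminal pyrimidine tract) through which their translation is regulated.

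The promoters of the members were searched for a few short sequences, which the choice by name did not use. RefSeq windows of 300 bases (250 before to 50 after the annotated start, build GRCm38.p6) were found for 39 of the 47 genes. The letters CCGGAAG, the core bound by ETS family factors, occurred on either strand in 14 of the 39 members (35.9%). They occurred in 21% of the 3954 genes with a window among those bright enough to test, and in 9.93% of all 27025 genes with a window. The stretches below show this match in capitals (CTTCCGG is the same match on the other strand) in a subunit of each of several complexes, from the eEF1 guanine nucleotide exchange factor (Eef1b2) to eIF2B (Eif2b4), eIF3 (Eif3l, Eif3m) and the cap-binding eIF4E relative Eif4e2.
Eef1b2, chr1:63176801-63176860, plus strand: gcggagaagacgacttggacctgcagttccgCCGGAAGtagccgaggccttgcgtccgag
Eif2b4, chr5:31193110-31193169, minus strand: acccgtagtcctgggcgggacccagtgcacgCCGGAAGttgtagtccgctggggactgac
Eif3l, chr15:79075161-79075220, plus strand: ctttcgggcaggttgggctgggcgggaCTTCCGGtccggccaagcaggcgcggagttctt
Eif3m, chr2:105017050-105017109, minus strand: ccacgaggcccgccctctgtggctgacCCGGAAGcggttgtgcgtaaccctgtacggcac
Eif4e2, chr1:87213881-87213940, plus strand: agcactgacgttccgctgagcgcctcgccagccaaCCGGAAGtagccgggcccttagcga

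Other short sequences were less common or near the background. A run of at least 8 C or T bases within 30 bases of the start, read on the transcript strand, was present in 13 of 39 members (33.3%) and in 26.3% of the tested genes with a window, and on the other strand in 13 of 39 and 26.9%. Annotated starts can lie several bases from the true one, so these runs are not mapped tracts. GAAA followed after any 2 bases by a second GAAA, a core of interferon-stimulated response elements, was found in 2 of 39 members (5.13%), against 3.59% of the tested genes. The 2 members were Eif3a and Eif2ak2, the double-stranded RNA kinase known as an interferon target. TTCNNNGAA, which STAT factors bind, was in 5 of 39 (12.8%) against 8.24%, and TATAAA in 3 of 39 (7.69%) against 10%, each on either strand. Stretches with the C or T run of Eef2 and Eif3f and the response element of Eif2ak2 in capitals are given as examples. Eef2 and Eif2ak2 are set below beside the ribosomal protein and interferon scores, and the run in Eif3f is long. Eef1a1 and Eef1b2 are set beside the ribosomal protein score too. In the windows examined, the longest run within 30 bases of the start was 10 bases for Eef1a1 and 4 for Eef1b2.
Eef2, chr10:81176601-81176660, plus strand: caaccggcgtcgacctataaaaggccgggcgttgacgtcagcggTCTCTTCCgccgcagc
Eif3f, chr7:108934385-108934444, plus strand: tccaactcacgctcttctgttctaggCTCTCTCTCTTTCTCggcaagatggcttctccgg
Eif2ak2, chr17:78882543-78882602, minus strand: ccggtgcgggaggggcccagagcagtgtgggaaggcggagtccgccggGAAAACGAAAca

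Many translation factor genes stayed within a narrow range over the 8 livers, and a minority, among them Eif1a, Eif4a1, Eif4a2 and Eef1b2, ranged more widely. The highest mouse was less than 1.5 times the lowest in 19 of the 35 tested members, against 36.2% of the 4869 tested genes, and more than 2 times in 7 of 35, against 23.3%. The SD of log2 intensity over the mice had a median of 0.19 among the members and 0.23 among all tested genes. It ran from 0.09 for Eif1ax to 0.48 for Eef1b2, under the 90th percentile of all genes (0.50) on the brightest probe set of every one of the 35 members. The other tested probe sets of Eif4ebp2 lay above that line (0.505 and 0.926). Members were somewhat brighter than other genes (median of mean log2 intensity 9.52 against 9.15). Relative to the variance expected at its brightness, the median member had a ratio of 0.80 and the median gene 1.04. That ratio was put to an F test with the trend and prior degrees of freedom that limma estimated. At an adjusted p under 0.05, 0 of 35 members passed, and 0 of 6265 probe sets did (percent called 0). At an unadjusted p under 0.05 there were again 0 of 35 members, against a background of 6.38%. That test has little power here. With variances spread as estimated, it recovered 1.5% of simulated probe sets whose own drawn SD was multiplied by 8. A chi-square test that takes the trend with brightness as known marked 5 of 35 members by their brightest probe set (Eef1a2, Eef1b2, Eif1a, Eif3a and Eif4a1). It marked 18.3% of all probe sets. The other tested probe sets of Eif4ebp2 were marked too (adjusted p = 0.000841 and 0.000782, chi-square test).

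**Figure D1:**
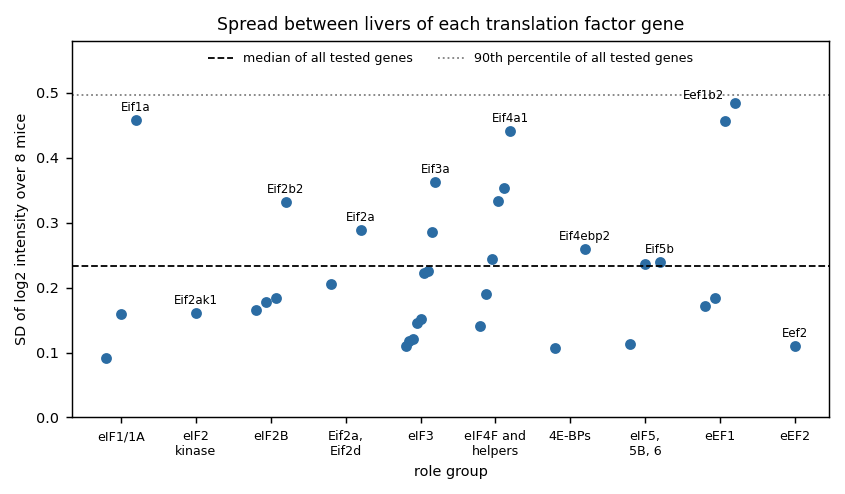
SD of log2 intensity over the 8 mice (vertical axis) for each of the 35 tested genes, 1 point per gene, by role group (horizontal axis). The widest gene of each group is named, the dashed line is the median of all 4869 tested genes (0.23) and the dotted line their 90th percentile (0.50), above all 35 points.

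Among the scanning factors, Eif1a (eIF1A from an autosomal gene) had the widest range. It read 478 in mouse 5, a median of 680.2, and 1142 in mouse 6, a 2.39-fold range, and mice 3, 6 and 8 (947 to 1142) lay above the other 5 (478 to 719). Eif1ax, its X-linked relative, had the narrowest range of all 35 members by their brightest probe sets. It ran from 558 in mouse 2 through a median of 593 to 671 in mouse 4 (1.20-fold). The dimmer tested probe set of Eif1ax ranged 2.34-fold, with an SD of log2 intensity of 0.40. The coding sequences of these relatives are very similar, so signal shared between their probe sets cannot be told apart. Eif1b, a close relative of eIF1, lay between 695 in mouse 1 and 944 in mouse 3, with a median of 819.

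The eIF2B exchange factor was represented by 4 tested subunits, of which 3 ranged less than 1.5-fold. Eif2b4, part of the regulatory subcomplex, was the narrowest by SD, from 440.2 in mouse 8 through 499 to 611 in mouse 2, on a probe set that shares probes with other transcripts. Eif2b2 was the widest, from 240.4 in mouse 8 through 329.6 to 445 in mouse 7. Mouse 3 (250.4) was next to mouse 8 at the low end. Eif2b1 read 340.0 to 494 and Eif2b5, the catalytic subunit, 372 to 522. Eif2a, an alternative initiator tRNA carrier, read 188 in mouse 1, a median of 297 and 338 in mouse 4, with all mice but mouse 1 at 236.7 or more. Eif2d, a tRNA-binding factor that also acts in ribosome recycling, read 333 in mouse 7, a median of 387 and 501 in mouse 8. Eif2s2, the beta subunit of eIF2 itself, was too dim to test, at 51.0 in mouse 1 and 97.7 to 149.6 in the other 7 mice.

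Of the 4 eIF2 kinases, only the haem-regulated kinase gene Eif2ak1 was bright enough to test. Its intensity was 628 in mouse 6, 724 at the median and 888 in mouse 2, a 1.42-fold range without a gap between mice. Eif2ak2 was dim, from under the floor (37.2) in mouse 5, where it read 21.4, through a median of 105 to 132 in mouse 2. Eif2ak3 (PERK, the endoplasmic reticulum stress kinase) read 54.1 in mouse 5, 69.6 at the median and 75.7 in mouse 6. Eif2ak4 (GCN2, which senses uncharged tRNA) read 55.9 in mouse 3, 67.8 at the median and 121 in mouse 5. All 3 of these lay below the brightness needed for the test in every mouse, and mouse 5 was at an extreme of each. Over all tested genes, 21.0% had their lowest value in mouse 5 and 20.8% their highest.

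Most eIF3 subunits were among the steadiest members, with 6 of the 9 tested ranging less than 1.5-fold and a median SD of 0.15. Eif3b, a scaffold subunit, was the narrowest, from 1255 in mouse 1 through 1340.2 to 1556 in mouse 5. Eif3c (2671 to 3402), Eif3l (1909 to 2422) and Eif3d (1063 to 1386) ranged between 1.27-fold and 1.30-fold, and Eif3k from 1205 to 1630.2. Eif3a, the largest subunit, was the widest, at 401 in mouse 3, a median of 647 and 824 in mouse 1. Eif3m also had its lowest value in mouse 3 (1070 against a median of 1623 and 1902 in mouse 4), as did Eif3e (342 to 532) and Eif3j1 (801 to 1200.0). Mouse 3 held the lowest value of 6 of the 9 tested eIF3 genes and of 9 of the 35 members. Over all tested genes, 14.6% had their lowest value in mouse 3. Eif3f was dim, at 31.8 in mouse 6 and between 101 and 151 in the others.

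In the cap-binding complex and its helpers, 3 of the 6 tested genes ranged more than 2-fold: Eif4a1, Eif4g3 and Eif4a2. Eif4a1, a helicase gene, had the widest SD and read 434 in mouse 1, a median of 701 and 1038 in mouse 4 (2.39-fold), on a probe set of the kind for which the array's usual probe selection rules were relaxed. Eif4a2, the second helicase gene, read 2773 in mouse 3, a median of 4153 and 5746 in mouse 7 (2.07-fold), with mouse 4 close to mouse 7 at 5669. Eif4g3, an eIF4G scaffold, read 245 in mouse 5 and 363 to 528 in the other 7 mice, so its 2.15-fold range rested on mouse 5, the liver with the high Gapdh 3' over 5' ratio. The part of RNA quality in this was not tested. Eif4g2, a scaffold used in cap-independent initiation, was lowest in mouse 5 as well (251, median 340.3, highest 431 in mouse 3), and ranged from 308 to 431 without it. Eif4b, an activator of the helicase, ranged from 1336 in mouse 8 to 1943 in mouse 5 (1739.7 at most without it), and Eif4e2 was the narrowest of the group (245 to 335). The cap-binding gene Eif4e itself read 20.8 to 69.1, Eif4enif1, its transporter, 10.8 to 63.7, and Eif4h lay under the floor in all 8 mice (6.4 to 17.3).

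The eIF4E-binding proteins differed from each other in spread. Eif4ebp1 read 342 in mouse 1, 393 at the median and 432 in mouse 8, an SD of 0.11. Eif4ebp2 read 3075 in mouse 8, 4493 at the median and 5313 in mouse 5, an SD of 0.26, and mouse 6 (3479) was next to mouse 8 at the low end. Among the late factors, Eif6 (which keeps the large subunit apart until it is needed) was the narrowest at 769 to 961, with a median of 902. Eif5b, the GTPase of subunit joining, had the widest SD of log2 intensity (0.240) at 296 in mouse 1, 402 at the median and 471 in mouse 4. Eif5, the GTPase activator of eIF2, was close to it in SD (0.236) and had the wider range, 1262 in mouse 3 to 2163 in mouse 4 (1.71-fold against 1.59-fold). Eif5a, whose hypusine-bearing product helps the ribosome past difficult peptide bonds, was dim (40.9 to 96.7).

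The elongation factors held both steady and wide-ranging genes. Eef2, the translocase, read 5815 in mouse 8, 6629 at the median and 7528 in mouse 1, an SD of 0.11. Eef1a1, the main tRNA carrier, read 18792 in mouse 6, 22274 at the median and 26785 in mouse 5, a 1.43-fold range in which mice 6, 7 and 8 were the 3 lowest (18792 to 19559). Eef1d, an exchange factor subunit, was the narrowest of the eEF1 genes at 752 to 1046. Eef1b2 was the widest, at 151 in mouse 5, 164 in mouse 2 and 253 to 373 in the other 6 mice, on a probe set made under relaxed rules. Eef1a2, the isoform known from muscle and neurons, read 171 in mouse 6, 271 at the median and 368 in mouse 3. Its mice fell apart into 170.7 to 228 (mice 4, 5, 6 and 7) and 314 to 368 (mice 1, 2, 3 and 8). All 5 muscle markers listed as a check were too dim to test, the brightest being Ckm at 112 to 183. Eef2k, the kinase that inactivates eEF2, read 15.8 in mouse 6 to 81.3 in mouse 4, Eef1akmt1, an eEF1A methyltransferase, 125 to 185, and Eef1g was under the floor in all 8 mice.

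**Figure D2:**
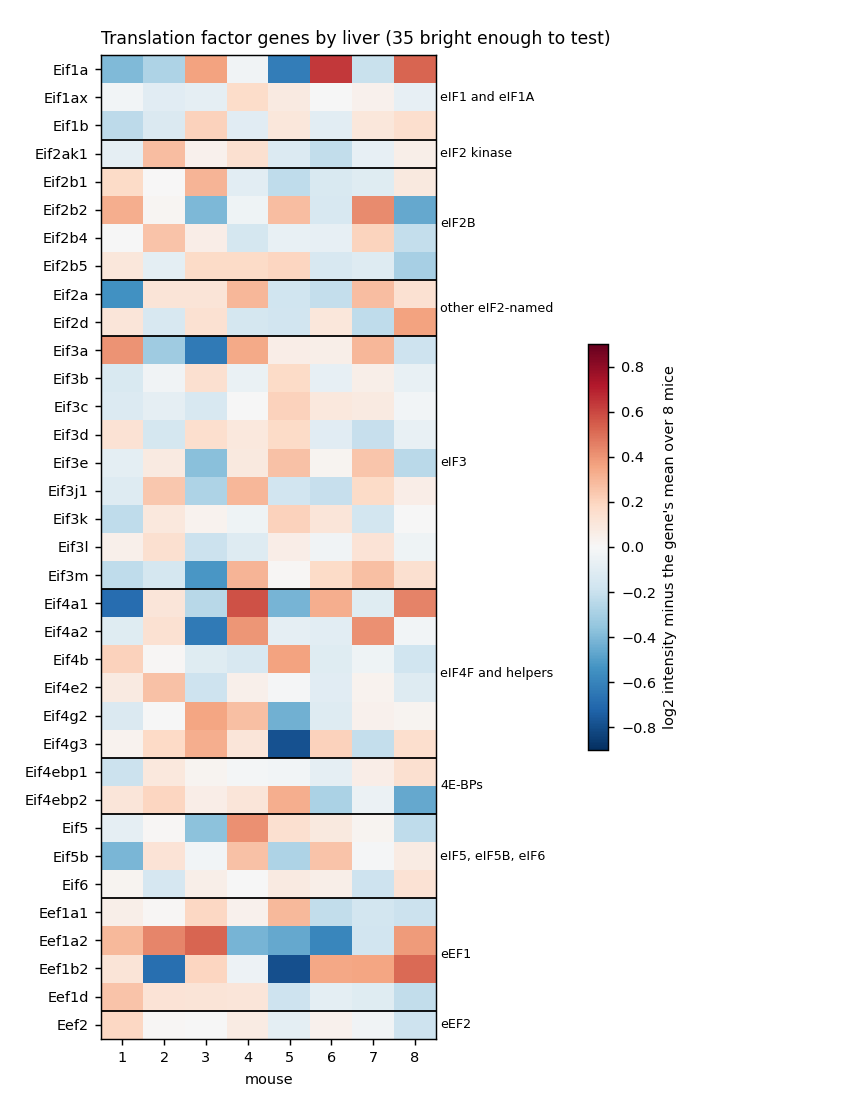
Deviation of log2 intensity from the mean of the gene (colour, red above and blue below the mean) for the 35 tested genes (rows, by role group) in each mouse (columns). Eif1a is red in mice 3, 6 and 8, most eIF3 rows are pale, and Eif4g3 and Eef1b2 are darkest blue in mouse 5.

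The members did not move as a block. The median correlation over the 8 mice between pairs of the 35 tested members was -0.006, as a description, and 0.002 between pairs of all tested genes. Within eIF3 it was 0.20 (9 genes) and within eIF2B 0.08 (4 genes). The mean deviation of the members from their own means stayed between -0.06 in mouse 5 and 0.08 in mouse 4 on the log2 scale. All these correlations share 8 arrays and their scaling.

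Interferon response genes differed widely between these livers (median SD 1.18 on the log2 scale over 22 genes), so each probe set was fitted against an interferon score with limma. The score averages, over those 22 genes, how far a mouse lies from each gene's mean log2 intensity, and it holds no translation factor. Mice 6 (1.93), 8 (1.5) and 3 (0.77) scored high. Mice 2 (0.07) and 1 (-0.16) were near 0, and mice 5 (-1.29), 4 (-1.35) and 7 (-1.46) scored low. A slope is the change in log2 intensity per unit of the score. At an adjusted p under 0.05, 1 of 35 members was called, against 8.06% of 6241 probe sets outside the score (314 or 5.03% up and 189 or 3.03% down). At an unadjusted p under 0.05 there were 5 members, 3 up and 2 down, against backgrounds of 22.7% in all, 10.8% up and 12% down. Slopes were negative in 22 of 35 members (median -0.03) and in 53.8% of all tested genes outside the score (median -0.01).

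The called gene was Eif1a, which rose with the score by 0.28 ± 0.07 (SE, n = 8 mice; adjusted p = 0.0343, limma). The fitted line spans 1.95-fold from the lowest to the highest score. Its second tested probe set, at 299 in mouse 4, a median of 337 and 472 in mouse 6, had a slope of 0.19 ± 0.06 and missed the threshold (adjusted p = 0.0623, limma). It passed without mouse 5 (slope 0.23, adjusted p = 0.0448) and with the Gapdh ratio as a second covariate (0.22, 0.0387, limma for each). Mice 3, 6 and 8 lay above the other 5 on this probe set too (454 to 472 against 299 to 354). The call on the brighter probe set ended without mouse 3 (adjusted p = 0.0552), mouse 5 (0.0700), mouse 6 (0.200) or mouse 8 (0.132, limma for each), at slopes between 0.26 and 0.27. It also ended with the Gapdh ratio as a second covariate (slope 0.25, adjusted p = 0.0722), after all arrays were brought to one median (0.25, 0.0555) and without the brightness filter (0.30, 0.0519, limma for each).

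The X-linked Eif1ax ran the other way on its dimmer probe set, which read 180.3 in mouse 6, 246 in mouse 8, a median of 339.7 and 421 in mouse 7. That probe set fell with the score by 0.27 ± 0.06 per unit (adjusted p = 0.0201, limma), a fitted range of 1.90-fold. Mice 6 and 8 were its 2 lowest, and the other 6 lay between 313 and 421. The brighter probe set, which stands for the gene, had a slope of -0.05 ± 0.04 (adjusted p = 0.561, limma), so the 2 probe sets of Eif1ax disagree in size. The call on the dimmer one ended without mouse 6 (slope -0.20, adjusted p = 0.180), mouse 7 (-0.27, 0.0505) or mouse 8 (-0.28, 0.0657, limma for each).

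**Figure D3:**
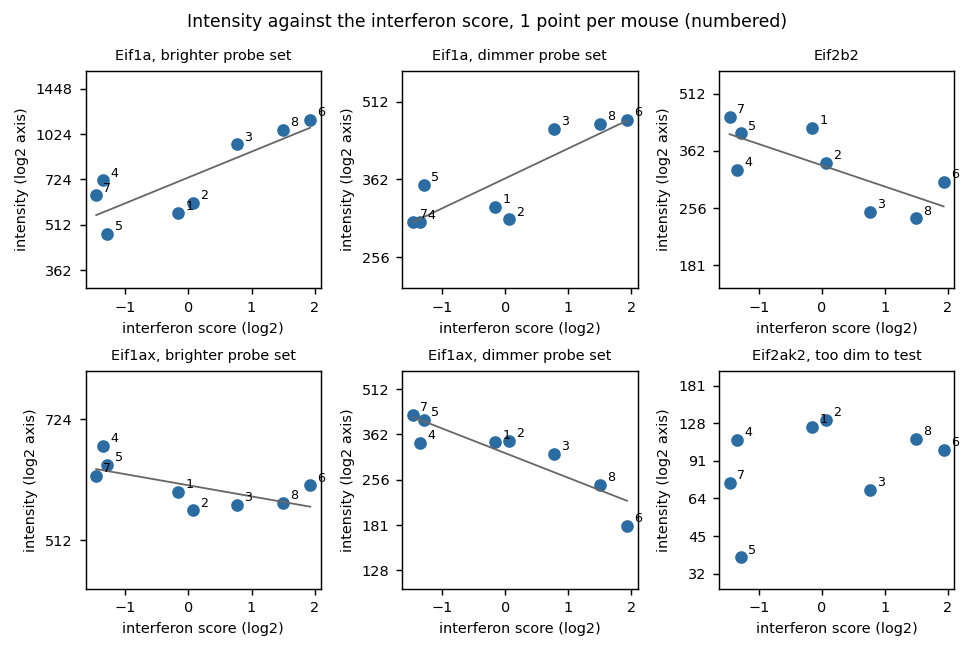
Intensity (log2 axis) against the interferon score for the probe sets of Eif1a and Eif1ax, for Eif2b2 and for Eif2ak2, 1 numbered point per mouse, with the fitted line where the probe set was tested (Eif2ak2 in mouse 5 is drawn at the floor of 37.2). Mice 3, 6 and 8 are the highest on both Eif1a panels, and mice 6 and 8 the lowest on the dimmer Eif1ax panel.

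Other members with an unadjusted p under 0.05 missed the adjusted threshold. Eif2b2 had a slope of -0.19 ± 0.07 (adjusted p = 0.128), Eif4ebp2 of -0.14 ± 0.05 (0.148), Eif2d of 0.13 ± 0.05 (0.139) and Eif4g3 of 0.17 ± 0.08 (0.215, limma for each). The other tested probe sets of Eif4ebp2 had slopes of the opposite sign, 0.17 ± 0.12 and 0.12 ± 0.23 (adjusted p = 0.453 and 0.824, limma). Eif2b2 passed when the arrays shared a median (slope -0.25, adjusted p = 0.0494, limma). That scaling moves arrays by between -0.10 and 0.18 on the log2 scale and turns the split of all calls to 243 up and 352 down. Eif2ak2, too dim to test, read 101, 111 and 69.3 in the high-scoring mice 6, 8 and 3, and 132 and 124 in mice 2 and 1. The low-scoring mice 4, 7 and 5 were at 109.9, 74.1 and 21.4. Without the brightness filter its slope was 0.18 ± 0.16 (adjusted p = 0.642, limma), and the exact permutation test of its correlation with the score gave r = 0.38 (p = 0.359, two-sided; adjusted 0.624 over 9 pairs; rho = 0.29, p = 0.501, adjusted 0.644). It was 0.33 without mice 6 and 8, and 0.10 without mouse 5 alone (exact permutation p = 0.823).

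Macrophage markers moved with the interferon score. Of 11 on the array 10 were bright enough, 9 of them were called upward with the score, and their summed intensity ran from 5385 in mouse 4 to 32335 in mouse 6 and 20182 in mouse 8. Marco, the dim one, was under the floor in 5 mice. Of the T and NK cell markers, 2 of 8 on the array were bright enough to test, Ccl5 and Cd4. Their sum ran from 108 in mouse 4 to 2304 in mouse 6, where Ccl5 read 2069 and Cd4 235. Ccl5 was called upward with the score and lay under the floor in 4 mice. Cd4 was not called (slope 0.23 ± 0.14, adjusted p = 0.374, limma) and was under its median of 271 in mouse 6. Cd3d and Cd8a were under the floor in all 8. In whole liver, more cells of a type and more RNA per cell cannot be told apart, and the part of these cells in the Eif1a and Eif1ax slopes was not tested.

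Other lists are read against the 8.06% of all probe sets called. In the interferon fit 0 of 26 other translation genes (initiation regulators, release factors and mTOR pathway genes), 0 of 19 aminoacyl-tRNA synthetase genes, 0 of 4 mitochondrial translation factor genes and 0 of 25 cytosolic ribosomal protein genes passed in limma. Ddx3x, a helicase that aids initiation, was the widest of the first list (368 in mouse 5, median 1108, highest 1725). Vars, the valine-tRNA synthetase, was the widest of its list (287 in mouse 5, median 762, highest 1003), and Tufm, the mitochondrial elongation factor Tu, of its own (712 in mouse 5, median 1506, highest 1690.3). All 3 were lowest in mouse 5, whose Gapdh ratio stood apart and where 21.0% of all tested genes had their lowest value. Without it Ddx3x began at 594, Vars at 468 and Tufm at 1203, and the part of RNA quality there was not tested. At a share near that background, 1 gene was called in each of the next lists. Of 12 integrated stress response genes, targets of eIF2 phosphorylation, 1 was called: the transcription factor gene Atf3 rose with the score (slope 0.38 ± 0.06, adjusted p = 0.0038, limma), from 161 in mouse 7 to 474 in mouse 6. Of 16 endoplasmic reticulum chaperone and stress genes 1 was called, Herpud1, an endoplasmic reticulum degradation factor, which fell by 0.16 ± 0.04 per unit (adjusted p = 0.0294, limma), from 5975 in mouse 5 to 3666 in mouse 6.

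The second fit asked which members follow the cytosolic ribosomal protein genes. Their score (25 genes) spanned a narrow range, from -0.09 to 0.07 without mouse 5, which had 0.17. In limma 0 of 35 members (by the brightest probe set) and 0 of 6235 probe sets outside the score passed (percent called 0, lowest adjusted p = 0.324), and 0 of 35 members had an unadjusted p under 0.05 against a background of 9.54% (180 up and 415 down). That count depends on the scaling: once all arrays had the same median, 10 of 35 members had an unadjusted p under 0.05 (Eef1a1, Eif1ax, Eif2b5, Eif3b, Eif3c, Eif3d, Eif3k, Eif4b, Eif4ebp2 and Eif5), while 1408 of 6232 probe sets did (1180 up and 228 down) and 0 passed after adjustment. In simulated data with variances spread as estimated, the fit recovered 0% of slopes of 1 residual SD per SD of the score, 75.5% of slopes of 2 and 100% of slopes of 4. Eef1a1 had a slope of 1.26 ± 0.69 (adjusted p = 0.599, limma), Eef2 of 0.01 ± 0.62 (0.999) and Eef1b2 of -2.35 ± 1.64 (0.667). Slopes were positive in 17 of 35 members, among them 7 of the 9 eIF3 genes, and in 46.0% of all tested genes outside the score.

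Pairs of measures chosen for their known links gave no call after adjustment. Of 9 pairs listed, 6 had both measures bright enough, and the exact two-sided permutation test over the 8 mice was adjusted over these 6. Eef1a1 and the ribosomal protein score had r = 0.63 (exact permutation p = 0.0881, adjusted 0.529) and rho = 0.50 (p = 0.216, adjusted 0.432). Without mice 5 and 8, the farthest from the median score, r was 0.15. With 1 mouse left out, r was lowest without mouse 5 (0.31, exact permutation p = 0.504) and was 0.56 without mouse 8. When the arrays shared a median this pair passed (r = 0.85, adjusted p = 0.0467, exact permutation test). Eef2 and the ribosomal protein score had r = 0.008 (exact permutation p = 0.986, adjusted 0.986; rho = 0.26, p = 0.536, adjusted 0.644; r = 0.07 without mice 5 and 8). Eef1b2 had r = -0.45 with that score (exact permutation p = 0.264, adjusted 0.651; rho = -0.55, p = 0.171, adjusted 0.432), which turned to 0.34 without mice 5 and 8. It was 0.08 without mouse 5 alone (exact permutation p = 0.907) and -0.34 without mouse 8 alone.

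**Figure D4:**
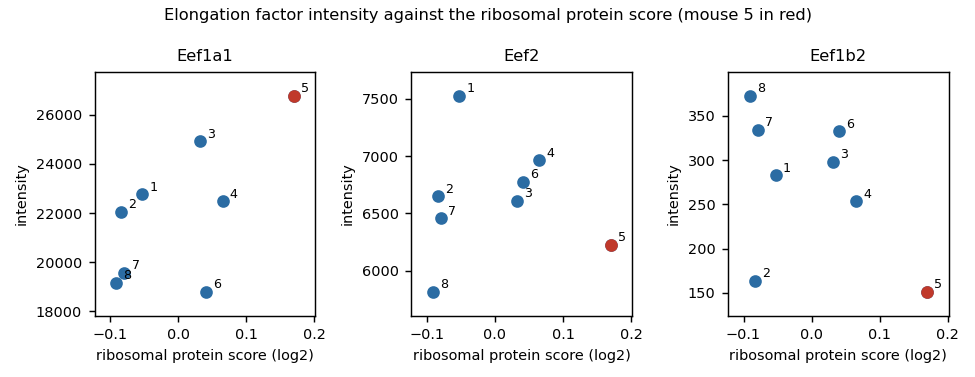
Intensity of Eef1a1, Eef2 and Eef1b2 (linear axes that do not start at 0) against the ribosomal protein score, 1 numbered point per mouse. Mouse 5, in red, has the highest score, the highest Eef1a1 (26785) and the lowest Eef1b2 (151).

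The other pairs also missed the threshold. Eif4a1 and Eif4a2, the helicase genes, had r = 0.41 (exact permutation p = 0.325, adjusted 0.651; rho = 0.52, p = 0.197, adjusted 0.432; r = 0.22 without mice 1 and 4). Eif4ebp1 and Eif4ebp2 had r = -0.29 (exact permutation p = 0.486, adjusted 0.728; rho = -0.31, p = 0.462, adjusted 0.644), and r = 0.40 without mice 1 and 8. Eif4ebp1, a known target of the stress factor ATF4, and the integrated stress response score had r = 0.10 (exact permutation p = 0.815, adjusted 0.978; rho = 0.12, p = 0.793, adjusted 0.793), and r = -0.08 without mice 4 and 5. The pairs of Eif2ak2, Eif2ak3 and Eif4e could be computed only without the brightness filter. There Eif2ak3 and the endoplasmic reticulum chaperone score had r = 0.74 (exact permutation p = 0.0299, adjusted 0.126 over 9 pairs; rho = 0.74, p = 0.0458, adjusted 0.249) and r = 0.61 without mice 3 and 5. Mouse 5 was lowest on both measures, and without it alone r was 0.50 (exact permutation p = 0.245, 7 mice). Eif4e with Eif4ebp1 had r = 0.32 (exact permutation p = 0.444, adjusted 0.624; rho = 0.31, p = 0.448, adjusted 0.644), r = 0.65 without mice 4 and 5, and r = 0.57 without mouse 5 alone (exact permutation p = 0.185).

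Probe sets for the same gene often disagreed between mice, which bears on every value above. Of the 14 members with more than 1 probe set, 5 had a second tested one. For Eif1a the brightest and second probe sets had r = 0.81 over the 8 mice, as a description, and for Eif1ax r = 0.29. The values for Eif2b5 (r = -0.14), Eif4b (-0.60) and Eif4ebp2 (0.02 for the second brightest and -0.35 for the dimmest) were near or below 0. Eif4b read 1943 in mouse 5 on its brightest probe set, the highest of the 8, and 391 on the second, the lowest. Eif4ebp2 was highest in mouse 5 on its brightest probe set (5313) and under the floor there on the dimmest tested one, at 21.4 with the rest at 90.7 to 242. That dimmest probe set had the steepest slope of the member probe sets on the ribosomal protein score (-7.91, unadjusted p = 0.0055). The relation of these differences to the Gapdh ratio of mouse 5 was not tested.

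**Figure D5:**
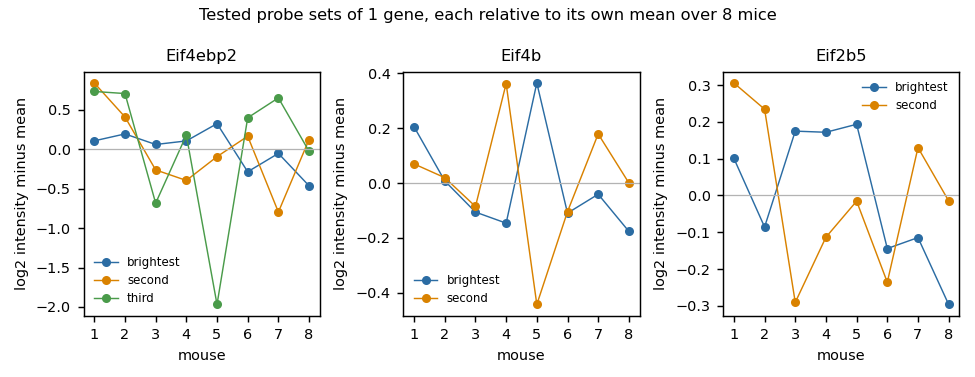
Log2 intensity of each tested probe set of Eif4ebp2, Eif4b and Eif2b5 minus its own mean (vertical axis) in mice 1 to 8 (horizontal axis), with values raised to the floor of 37.2. In mouse 5 the brightest probe sets of Eif4ebp2 and Eif4b are at their highest, while the dimmest of Eif4ebp2 and the second of Eif4b are at their lowest.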

How the data were processed

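The deposited table holds an intensity on a linear scale for each probe set of each array, and per the labels a Hewlett-Packard GeneArray scanner read the arrays. The sources used here do not name the software that summarised the probes. The authors' scaling was kept, and 0 columns lacked a sample. Control probe sets (66) were left out, values under 37.2 (the lower quartile) were set to it, and log2 was taken. Symbols came from GEO's platform annotation, and all 47 members matched RefSeq. limma 3.58.1 (R 4.3.3) gave the variance trend and the 3.80 prior degrees of freedom for the one-sided F test of spread. It also gave the two-sided slopes (eBayes with trend and robust prior). Both had Benjamini-Hochberg adjustment over all tested probe sets at 0.05. Correlations were tested by exact permutation (40320 orders). Both kinds of fit were tested on simulated data of 6265 probe sets. Members were taken by symbol alone, though earlier results of these data were known when members and lists were chosen. Full values go to called members, the widest and narrowest member of each role group, the kinases, the binding proteins and members of pairs, and up to 3 other genes a list are named, called ones first, then the widest. The 8 arrays limit the precision. No liver had a repeat array, so differences between livers include differences in RNA handling, labelling and hybridisation. The p-values come from tests of spread, slope or correlation over these arrays, and none separates the liver from its array.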

Additional observations from a re-analysis of the deposited data

Results flagged for a closer look

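Of 52 measures examined for a mouse that stands apart, 1 did so, where chance gives about 1 in 20. It was the Gapdh 3' over 5' log2 ratio, in which the gap from mouse 5 (1.41) to the next mouse (0.09) was 0.756 of the whole range, above the critical value of Dixon's test for 8 values. These measures did not cover every gene named here. Among genes outside them, the gap also passed that value for Eif3f (0.714, mouse 6) and Eif2s2 (0.604, mouse 1), both too dim to test. Tufm (0.606) and Hnf4a (0.610) passed it too, each in mouse 5. The 5' Gapdh probe set read 6987 in mouse 5 and 15998 to 19034 in the other 7 mice, while the 3' probe set read 18629 in mouse 5 and 13014 to 17803 elsewhere.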

How the results depend on the processing

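The count of members past the spread test was 0 under each alternative but the chi-square test, which marked 5 members and 1147 probe sets. The interferon fit called 308 probe sets with the lowest mouse required to reach the brightness minimum, and 136 to 495 when each mouse was left out in turn (136 without mouse 6, 205 without mouse 8), against 503. It called 2 members with probe sets averaged (Eif1a and Eif1ax), 0 without a brightness filter, 0 with the Gapdh ratio as a covariate and 0 to 1 with a mouse left out. The slope of Eif4ebp2 turned to 0.050 with probe sets averaged. Eif4ebp1 and the stress response score had r = -0.18 after quantile normalization, -0.034 with the stricter filter and -0.049 to 0.57 with a mouse left out. Eef1a1 and the ribosomal protein score had 0.85 with a common median and 0.31 to 0.84 with a mouse left out. Eef2 and that score had -0.11 with probe sets averaged, -0.36 after quantile normalization, -0.064 without shared probe sets, -0.019 with the stricter filter and -0.39 to 0.38 with a mouse left out. Eef1b2 and that score had -0.85 to 0.079, and Eif4a1 with Eif4a2 0.21 to 0.53, with a mouse left out. Eif4ebp1 and Eif4ebp2 had 0.38 with a common median and -0.51 to 0.17 with a mouse left out. Leaving out mouse 5 in the pairs of dim genes was added after the data were seen. The causes of these shifts were not tested. No paired analysis was possible because the mice form 1 group.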
